A study of Zea mays with 11 samples.

Results

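The endosperm of the maize inbred line Mo17 at 20 days after pollination (DAP) was compared with the endosperm at 13 and 15 DAP, using 3 of the 11 libraries of the series. A gene could be called changed only when its 20 DAP value lay on the same side of both earlier libraries. It was called higher or lower when it did so by at least 2-fold against each of them, on the scale log2(FPKM + 1), where FPKM is a fragment count corrected for transcript length and library size. Of the 34145 genes in the table, 14060 averaged 1 FPKM or more over the 3 libraries and were examined.

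The plants were grown in one field season and self-pollinated on one day. Seed, endosperm and leaf were dissected by hand at midday and frozen, and polyadenylated RNA was sequenced. By their labels, all 3 libraries are Mo17 endosperm and differ only in age, and the rest of the series holds kernels, 5 other endosperm stages and a leaf. Since all plants were pollinated on the same day, each age was also a different harvest day. Age and harvest day therefore cannot be told apart. Each stage has 1 library, so no difference below has a replicate check or a test, and every value stands for that library.

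Cereal endosperm is a triploid storage tissue that first divides and enlarges and then fills with starch and protein. Zeins are the prolamin storage proteins of maize, made on the rough endoplasmic reticulum and packed in protein bodies, while starch is built in amyloplasts from ADP-glucose. The tissue imports sucrose through basal transfer cells, runs glycolysis at low internal oxygen, and its starchy cells die as the grain matures.

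The libraries carried the markers of starchy endosperm. The 9 genes matched to starchy endosperm symbols (zeins, starch enzymes, o2 and pbf1) summed to 22344, 17489 and 33514 FPKM in the 13, 15 and 20 DAP libraries, against 24.9 in the leaf. The zeins zp16 (8466, 6226 and 17853 FPKM) and zp27 (5904, 4916 and 9561 FPKM) were the largest in each endosperm library. These zeins and wx1 were highest at 20 DAP, whereas sh2, bt2, sh1 and both pbf1 identifiers were lowest there. The sum therefore does not show a rise of the set. The 73 photosynthesis genes of the green tissue list summed to between 27.3 and 35.1 FPKM in the 3 endosperm libraries and to 8812 in the leaf. Embryo markers summed to 67.1, 47.8 and 55.2 FPKM at 13, 15 and 20 DAP. Of the 10 genes found, 4 were listed at 0 at 20 DAP, among them lec1 and kn1, which were already at 0 at 15 DAP. Without the oleosin gene ole1 the other 9 summed to 18.3, 22.6 and 36.4 FPKM, highest at 20 DAP, where glb1 (GRMZM2G067919) was at 22.7 FPKM. Transfer cell markers (7 genes matched from 11 symbols) summed to 335, 155 and 129 FPKM, so that most of the gap separated 13 DAP from the other 2 libraries. Aleurone markers summed to 128, 160 and 72.8 FPKM. The 4 genes of the embryo-surrounding region summed to 8.29, 5.19 and 5.65 FPKM. Apart from the photosynthesis list, no markers of maternal seed tissue were summed. In bulk tissue, fewer cells of a type and less RNA per cell cannot be told apart.

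At 20 DAP, 325 genes were called higher (2.31% of those examined) and 856 were called lower (6.09%). The 15 and 13 DAP libraries lay 2-fold apart, in either direction, for 159 genes (1.13%). Without the size limit, 3259 genes (23.2%) were above both earlier libraries, 8693 (61.8%) were below both, and 2108 lay between them or were tied. At 4-fold the calls were 50 higher and 55 lower. The median gene was 0.26 lower at 20 DAP than at the mean of 13 and 15 DAP on the log2 scale, while 15 and 13 DAP differed by a median of 0.032.

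The balance of the calls depended on how the libraries were scaled. The share of all FPKM taken by the 10 most abundant transcripts was 14.2% in the 13 DAP library, 12.8% in the 15 DAP library and 26.7% in the 20 DAP library. When the libraries were rescaled to their totals without the 100 most abundant genes, the median shift was 0.013 and the calls became 627 higher and 377 lower, 62.5% of them higher in place of 27.5%. Upper quartile scaling gave 502 and 468 (51.8% higher) and quantile normalization 553 and 413 (57.2% higher). All 325 higher genes kept their call under the first 2 of these scalings and 322 under the third, while 377, 468 and 412 of the 856 lower genes kept theirs. List medians are therefore also given relative to the median of all genes examined.

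**Figure D1:**
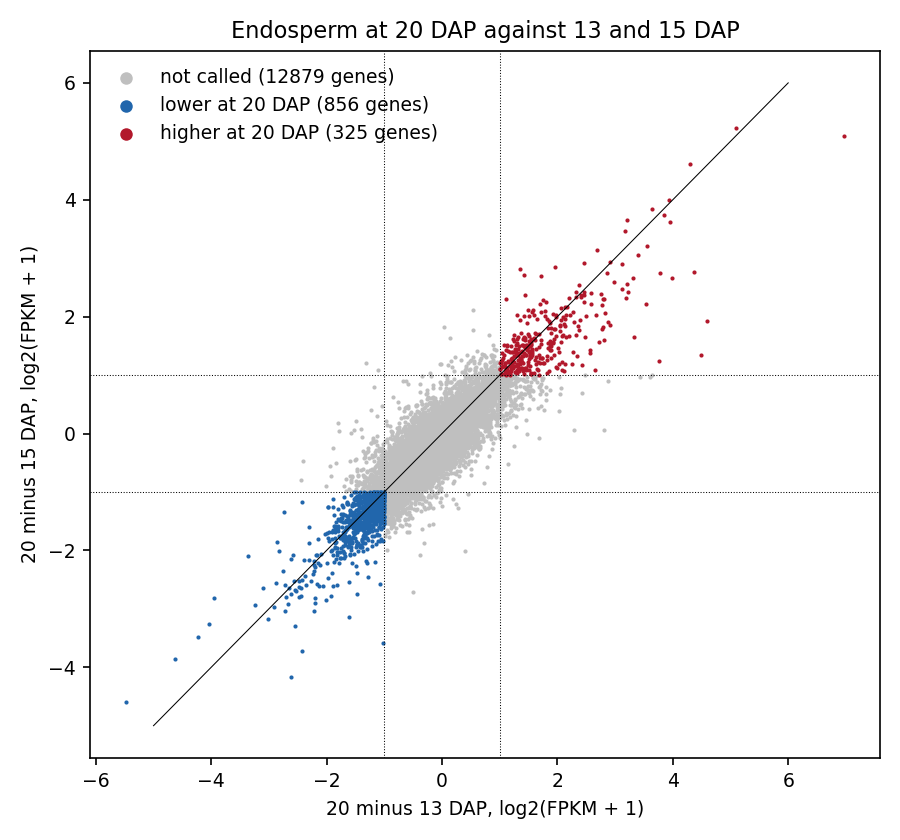
Each point is 1 of 14060 genes, placed by its 20 minus 13 DAP difference (x axis) and its 20 minus 15 DAP difference (y axis), both in log2(FPKM + 1). The 325 red and 856 blue genes lie beyond the dotted 2-fold lines on both axes, and the cloud of grey genes is centred below 0 on both.

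Abundant genes were called more often. Of the 341 genes averaging 100 FPKM or more, 17 were higher (4.99%) and 72 lower (21.1%), with a median log2 difference of -0.63. Of the 3943 genes from 10 to 100 FPKM, 83 were higher (2.1%) and 422 lower (10.7%). Of the 9776 genes from 1 to 10 FPKM, 225 were higher (2.3%) and 362 lower (3.7%), and on this scale the change of such low genes is understated.

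Zein transcripts stood at the top of the 20 DAP library. The 26 listed zein genes summed to 34514, 33625 and 71619 FPKM in the 13, 15 and 20 DAP libraries, or 11.7%, 11.2% and 24.5% of all FPKM. AF546188.1_FG007 and AF546188.1_FG005, among the 10 most abundant at 20 DAP, had no maize name or Arabidopsis match and fell in no list. They were at 5732.5, 4208 and 8253 FPKM and at 4815, 3547 and 7181 FPKM, without a call. Of the 25 that passed the filter, 22 were above both earlier libraries and 3 were below both. Of these 25, 6 were called higher (24.0%, beside 2.31% of all genes) and none was called lower. Their median log2 difference was 1.01, or 1.27 above that of all genes, and it was positive under each scaling (0.76 to 1.35). The calls were 6 under quantile normalization, of which 3 are shared with the 6 above, 12 under upper quartile scaling and 14 without the 100 most abundant genes. Without the 15 DAP library the calls became 18 higher and 2 lower, and without the 13 DAP library 7 higher. Zein copies are near-identical and may have exchanged reads in the authors' mapping, so the values of single copies are uncertain.

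The gamma zeins zp16 and gz50 were among the 10 most abundant transcripts at 20 DAP. The zp16 transcript (GRMZM2G060429) was at 8466, 6226 and 17853 FPKM at 13, 15 and 20 DAP. Its log2 differences were 1.08 and 1.52 against 13 and 15 DAP. The gz50 transcript (GRMZM2G138689) was at 2557, 1332 and 6902 FPKM, with log2 differences of 1.43 and 2.37. Both had been higher at 13 than at 15 DAP and then exceeded both earlier values, and under quantile normalization both calls were lost. At 25 DAP the pair parted, with zp16 at 8478 FPKM and gz50 at 12281. Zp27, another gamma zein, was at 5904, 4916 and 9561 FPKM and missed the 2-fold limit (log2 differences 0.70 and 0.96), as did the beta zein zp15 at 1304, 1120 and 1666 FPKM.

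Among alpha zeins, fl2 (GRMZM2G397687), the locus of the floury2 endosperm mutant, was at 474, 595 and 1752 FPKM at 13, 15 and 20 DAP, and at 3115 at 25 DAP. Its log2 differences were 1.89 and 1.56. The z1A1_3 transcript was at 1728, 1373 and 4098 FPKM, and its call was lost under quantile normalization. Both copies were thus higher at 20 DAP, but fl2 was lower at 13 than at 15 DAP and z1A1_3 the reverse. The z1C1_12 transcript had the widest relative range of the called zeins, at 8.35, 22.2 and 107 FPKM. The remaining call, z1A1_7 (GRMZM2G353268), was named after its values were seen, at 629, 496 and 1634 FPKM.

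Several other alpha zeins lay just under the limit. The z1C1_7 transcript was at 706, 1096 and 2177 FPKM (log2 differences 1.62 and 0.99), z1A2_1 at 2836, 3180 and 6279 FPKM, and z1A2_2 at 1132, 1602 and 3150 FPKM. Further from a call was z1C1_4, at 3316, 5486 and 6809 FPKM (log2 differences 1.04 and 0.31). The zeins below both earlier libraries, named after their values were seen, were z1A1_8, z1A1_2 and the sulfur-rich delta zein dzs18 (GRMZM2G100018), the last at 179, 98.8 and 76.5 FPKM. The family was therefore not uniform at 20 DAP.

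**Figure D2:**
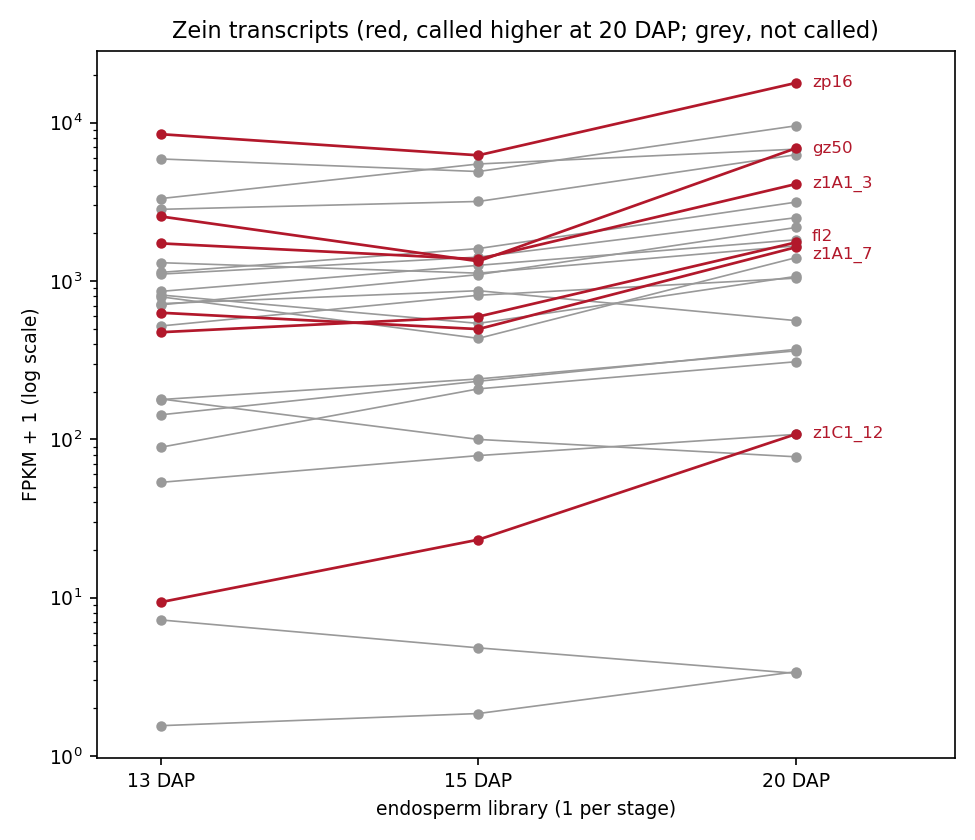
FPKM + 1 on a log scale (y axis) of the 25 zein genes that passed the filter in the 13, 15 and 20 DAP endosperm libraries (x axis), 1 line per gene. The 6 red lines were at least 2-fold above both earlier libraries, and 3 grey lines end below both of their earlier points.

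Transcription factors that act on storage genes did not move with the zeins. The bZIP factor o2, which in maize activates alpha zein genes, was at 119, 103 and 105 FPKM at 13, 15 and 20 DAP, between the earlier values. The zinc finger factor pbf1 (GRMZM2G146283) was at 80.2, 66.6 and 59.6 FPKM. Neither reached the 2-fold limit. The 10 listed endosperm factors that passed the filter had a median log2 difference of -0.28, against -0.26 for all genes. Of them none was higher and 2 were lower (20.0%, beside 6.09% of all genes). These were fl3 (GRMZM2G006585), a floury endosperm locus, at 2243, 2785 and 629 FPKM (log2 differences -1.83 and -2.14), and nkd1, an aleurone and endosperm regulator, at 80.7, 108 and 37.9 FPKM. The nkd1 call was lost under each of the 3 scalings, and nkd1 made up more than any other gene of the aleurone marker sum given above, whose part in this result was not tested.

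Of 24 starch synthesis genes that passed the filter, of 32 listed, 1 was higher (4.17%) and 3 were lower (12.5%), beside 2.31% and 6.09% of all genes. Of the 24, 18 were below both earlier libraries, beside 61.8% of all genes. The median log2 difference was -0.33, beside -0.26 for all genes. The list's median lay 0.36 below all genes under quantile normalization, 0.27 below without the 15 DAP library, and 0.038 below under each of the other scalings. Sh2 and bt2 encode the large and small subunits of ADP-glucose pyrophosphorylase, which makes the sugar nucleotide for starch. The sh2 transcript was at 2270, 1909 and 1825 FPKM at 13, 15 and 20 DAP, and bt2 at 2406, 1960 and 1214 FPKM. The bt2 log2 differences were -0.99 and -0.69, and it was called lower under quantile normalization alone among the scalings. Both were below both earlier libraries, sh2 by little. Bt1, the ADP-glucose transporter of the amyloplast, was at 1329, 1180 and 1035 FPKM, and the branching enzyme ae1 (GRMZM2G032628) at 978, 747 and 510 FPKM.

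The exceptions within starch synthesis lay in both directions. Zpu1 (GRMZM2G158043), a pullulanase-type debranching enzyme, was at 6.94, 4.83 and 26.7 FPKM at 13, 15 and 20 DAP and at 41.0 FPKM at 25 DAP. Its log2 differences were 1.80 and 2.25. Wx1, the granule-bound starch synthase that makes amylose, was at 967, 869 and 1567 FPKM, above both earlier libraries but under 2-fold (0.70 and 0.85). It was called higher when rescaled without the 100 most abundant genes. Pho1 (GRMZM2G074158), the plastidial starch phosphorylase, was at 622, 449 and 170 FPKM (log2 differences -1.86 and -1.40), a call lost under quantile normalization. The other lower genes, named after their values were seen, were agp2 (GRMZM2G106213), matched to the small subunit of ADP-glucose pyrophosphorylase, at 76.2, 69.7 and 31.9 FPKM, and a branching enzyme match (GRMZM2G073054) at 16.3, 14.8 and 6.11 FPKM, and both of these calls were lost under all 3 scalings. The synthases ss1 and du1 stayed within 2-fold, at 133, 125 and 112 FPKM and at 70.3, 47.9 and 49.0 FPKM.

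Sucrose synthases, which split sucrose on entry to metabolism, differed in direction between copies. The sus1 transcript was at 22.1, 23.7 and 6.24 FPKM at 13, 15 and 20 DAP. The sus2 transcript was at 4.76, 5.75 and 15.7 FPKM. The log2 differences were -1.67 and -1.77 for sus1 and 1.54 and 1.31 for sus2, so the lesser of the pair at 13 and 15 DAP was the greater at 20 DAP. Both calls held under the 3 scalings. Sh1, the main endosperm copy by level, was at 2127, 1435 and 1325 FPKM. The cell wall invertase mn1, which acts at the transfer cells, was at 11.6, 7.16 and 8.77 FPKM, between the earlier values.

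Glycolysis genes were lower, and the abundant cytosolic members most of all. The 52 listed genes, with the PPDK genes among them, summed to 8010, 6551 and 1981 FPKM in the same order of libraries, or 2.71%, 2.18% and 0.68% of the libraries' sums. Of the 30 that passed the filter, 26 were below both earlier libraries, 2 were above both, 9 were called lower and none higher. The share called lower was 30.0%, beside 6.09% of all genes. The median log2 difference was -0.72, 0.45 below all genes, and 7, 8 and 7 of the 9 kept their call under quantile, upper quartile and rescaled values. Without the 15 DAP library 13 were called.

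The cytosolic glyceraldehyde-3-phosphate dehydrogenase genes gpc3 and gpc4 differed most. The gpc4 transcript (GRMZM2G176307) was at 1724, 1386 and 181 FPKM at 13, 15 and 20 DAP, with log2 differences of -3.24 and -2.93. The gpc3 transcript (GRMZM2G071630) was at 1651, 1202 and 192 FPKM, with log2 differences of -3.09 and -2.64. Their paralogues gpc1 (GRMZM2G046804) and gpc2 (GRMZM2G180625), named after their values were seen, were at 45.1, 37.2 and 22.0 FPKM and at 99.2, 83.6 and 58.9 FPKM, short of 2-fold against both libraries. The contrast between copies thus lay with the abundant pair.

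Neighbouring steps around these in the pathway were also lower. Pgk-2 (GRMZM2G382914), a phosphoglycerate kinase match, was at 626, 615 and 105 FPKM at 13, 15 and 20 DAP. The aldolase match ald1 (GRMZM2G057823) was at 280, 289 and 49.6 FPKM. A match to cytosolic triose phosphate isomerase (GRMZM2G146206), which did not fall in the list by its wording, was at 40.7, 44.6 and 5.76 FPKM. The smaller of the paired log2 differences was -2.53 for Pgk-2, -2.47 for ald1 and -2.62 for the isomerase. Eno1 (GRMZM2G064302), an enolase named after its values were seen, was at 1142, 823 and 184 FPKM, whereas eno2 (GRMZM2G048371) at 360, 293 and 159 FPKM was not called.

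At 25 DAP these transcripts were still far under their 13 and 15 DAP values. The gpc4, gpc3, Pgk-2 and ald1 transcripts were at 298, 238, 110 and 86.7 FPKM there. All 4 were thus above their own 20 DAP values at 25 DAP. Ppdk2 and ppdk1, which encode pyruvate orthophosphate dikinase, were at 1343, 1100 and 638 FPKM and at 269, 299 and 156 FPKM, under the 2-fold limit. The genes above both earlier libraries were phosphofructokinase and plastid phosphoglucomutase matches of at most 15.0 FPKM (GRMZM2G031613 and GRMZM2G025854), named after their values were seen.

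**Figure D3:**
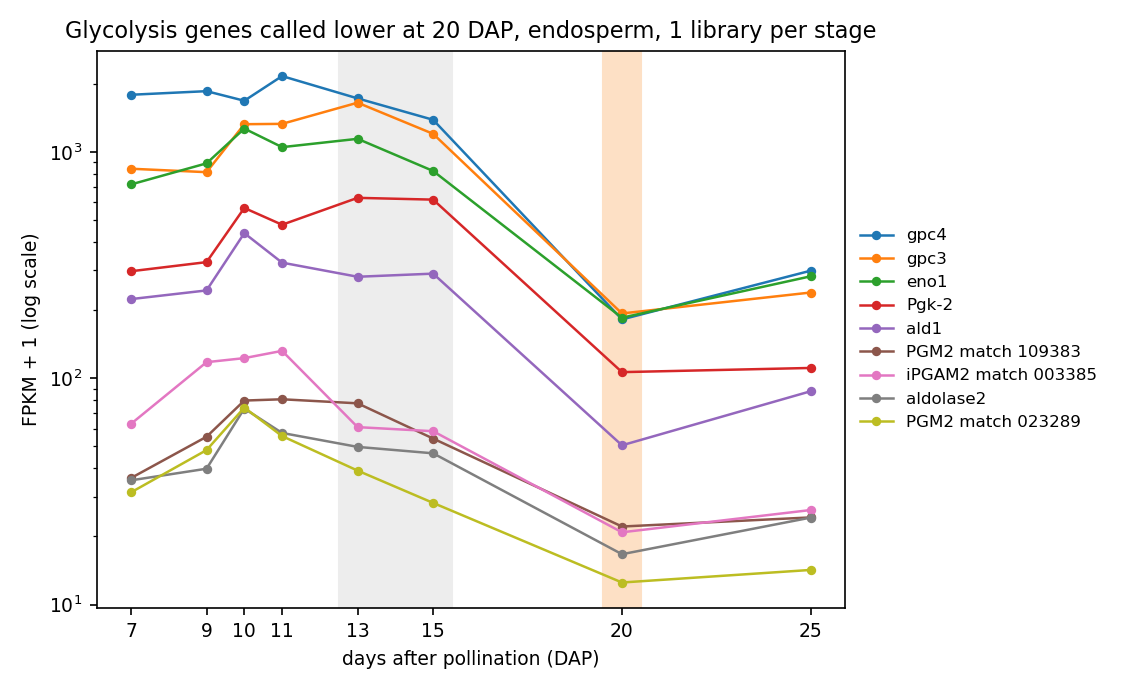
FPKM + 1 on a log scale (y axis) against age (x axis, DAP) for the 9 glycolysis genes called lower, over the 8 endosperm libraries; grey shading marks 13 and 15 DAP and orange marks 20 DAP. The 5 abundant genes stay high from 7 to 15 DAP and drop at 20 DAP, where gpc4 is at 181 FPKM after 1386 at 15 DAP.

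Fermentation genes gave 1 lower call among 6 that passed the filter (16.7%, beside 6.09% of all genes). Adh1, the alcohol dehydrogenase induced by low oxygen, was at 154, 119 and 45.0 FPKM at 13, 15 and 20 DAP (log2 differences -1.75 and -1.38), a call lost under quantile normalization, while pdc2, a pyruvate decarboxylase match, was above both at 30.0, 17.8 and 31.4 FPKM. Of 37 mitochondrial respiration genes that passed the filter, 33 were below both earlier libraries, 6 were lower (16.2%) and none higher, with a median log2 difference of -0.68, and 3, 4 and 4 of the 6 kept their call under the 3 scalings. The lowest was a malate dehydrogenase match (GRMZM2G068455) at 23.3, 25.5 and 3.15 FPKM, while a citrate synthase match (GRMZM2G135588) at 85.7, 76.0 and 97.5 FPKM was above both. Of 34 amino acid and nitrogen genes, 2 were higher (5.88%) and 7 lower (20.6%), beside 2.31% and 6.09% of all genes. The median log2 difference was -0.44, and 5 of the 7 kept their call under each scaling. An alanine aminotransferase match (GRMZM5G828630) was at 51.4, 54.7 and 7.00 FPKM (log2 differences -2.71 and -2.80). In the other direction an asparaginase match (GRMZM2G531230), from an enzyme class that releases ammonium from asparagine, was at 4.05, 5.14 and 21.0 FPKM and at 0.08 FPKM at 25 DAP.

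Fatty acid synthesis had the lowest median of the lists shown in the plot of list members. Of 23 genes that passed the filter, of 55 listed, 10 were lower (43.5%, beside 6.09% of all genes) and none higher. Of the 23, 21 were below both earlier libraries. The median log2 difference was -1.08, 0.81 below all genes, and 8, 9 and 8 of the 10 kept their call under the 3 scalings. A match to enoyl-ACP reductase (GRMZM2G070422), which completes each cycle of chain elongation, was at 51.4, 23.0 and 2.40 FPKM at 13, 15 and 20 DAP. Its log2 differences were -3.95 and -2.82, the 15 DAP value already lying between. The acyl carrier protein acp (GRMZM2G175818), which carries the growing chain, was at 60.4, 55.1 and 20.1 FPKM. Genes of storage oil bodies went both ways: a match to caleosin 3 (GRMZM2G342685) was at 2.26, 2.62 and 11.5 FPKM, a match to caleosin 4 (GRMZM2G090505) at 17.3, 12.5 and 2.69 FPKM, and ole1, an oleosin that is also an embryo marker, at 48.8, 25.2 and 18.8 FPKM without a call.

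**Figure D4:**
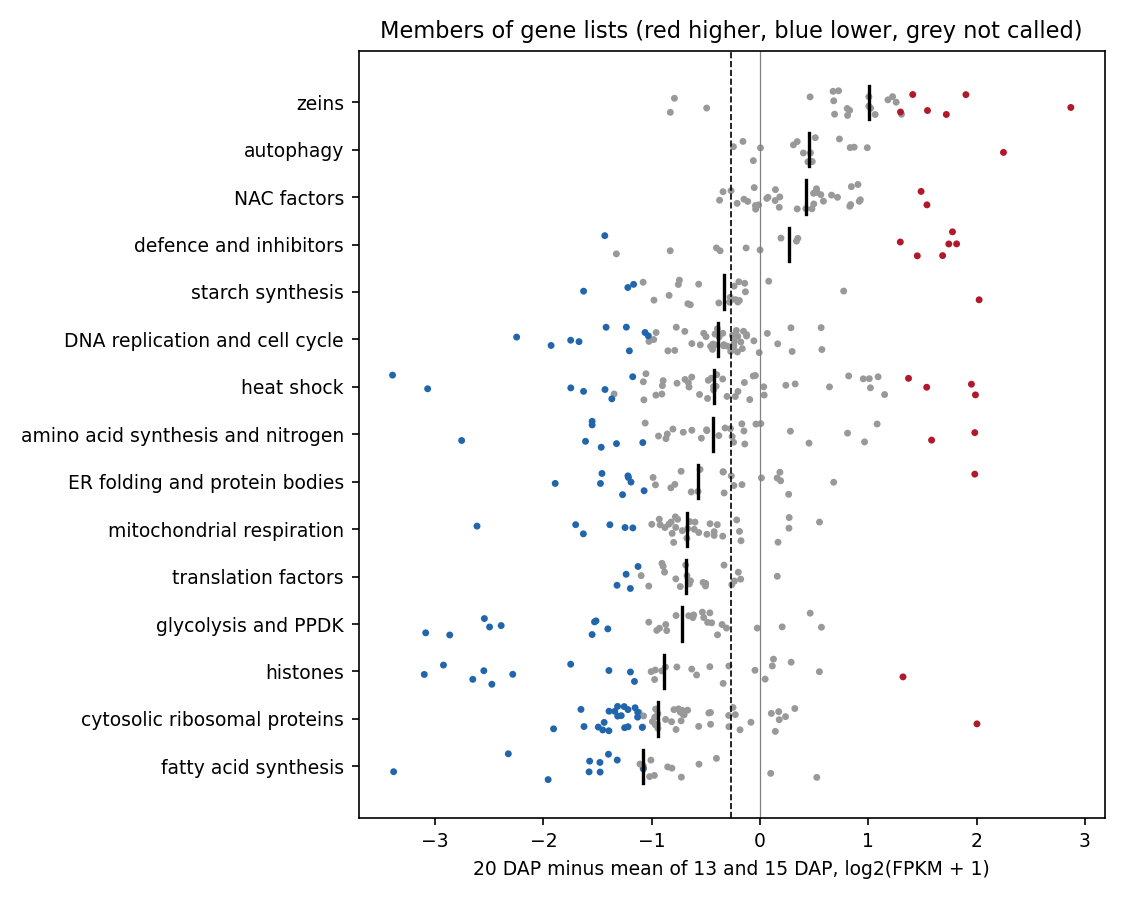
The log2 difference of 20 DAP from the mean of 13 and 15 DAP (x axis) for the members of 15 gene lists that passed the filter (y axis), 1 point per gene, with a black bar at each list's median and a dashed line at the median of all genes (-0.26). Zeins have the highest median (1.01) and fatty acid synthesis the lowest (-1.08) of the lists drawn.

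Of 58 cytosolic ribosomal protein genes that passed the filter, 20 were lower (34.5%, beside 6.09% of all genes) and 1 higher. Of the 58, 49 were below both earlier libraries. The summed level of the 97 listed genes was 3481, 3780 and 1839 FPKM at 13, 15 and 20 DAP, and the median log2 difference -0.94, 0.68 below all genes. Under quantile, upper quartile and rescaled values 5, 8 and 5 of the 20 kept their call, while the median stayed between 0.57 and 0.64 below all genes. Rpl19 (GRMZM5G887054) was at 328, 376 and 113 FPKM, and a match to RPL24 (GRMZM2G142640), whose call was lost under all 3 scalings, at 328, 377 and 141 FPKM. Both are proteins of the large subunit, and in each the 13 and 15 DAP values lay close together. Of 24 translation factor genes 4 were lower (16.7%, beside 6.09% of all genes), none of them under quantile or rescaled values. The eIF2 beta match (GRMZM2G080048), a subunit of the factor that brings the initiator tRNA, was at 109, 114 and 44.1 FPKM.

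Genes of protein folding in the endoplasmic reticulum did not follow the zeins. Of 29 that passed the filter, 1 was higher (3.45%) and 8 were lower (27.6%), beside 2.31% and 6.09% of all genes. Under the 3 scalings 2, 3 and 2 of the 8 kept their call, and quantile normalization gave 2 higher and 2 lower. The median log2 difference was -0.57, 0.31 below all genes. The protein disulfide isomerase pdi (GRMZM2G091481), which forms disulfide bonds in secreted proteins, was at 1548, 1679 and 586 FPKM at 13, 15 and 20 DAP. The related pdi6 was at 29.0, 38.9 and 8.33 FPKM. Bip1, a lumenal chaperone, was at 99.1, 138 and 97.2 FPKM, without a call. The higher gene was DER1.2, a derlin of the export route for misfolded proteins, at 0.75, 0.61 and 5.64 FPKM, while der4 (GRMZM2G112609), named after its values were seen, was lower at 26.3, 25.3 and 11.8 FPKM.

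Below both earlier libraries lay 20 of 28 histone genes and 43 of 52 replication genes that passed the filter, beside 61.8% of all genes. Of the 28 histone genes 10 were lower (35.7%, beside 6.09% of all genes) and 1 higher. The list's median log2 difference was -0.89, and 7, 8 and 7 of the 10 kept their call under the 3 scalings. A histone H2A match (GRMZM2G028955) was at 46.3 and 51.5 FPKM at 13 and 15 DAP and 4.81 at 20 DAP. Before that it had varied, at 153, 18.3, 110 and 182 FPKM at 7, 9, 10 and 11 DAP. An H2B match (GRMZM2G472696) was at 13.7, 14.8 and 37.1 FPKM, the only histone gene called higher. That gene was at 4.69 FPKM at 25 DAP, so its 20 DAP value stood above those of 15 and 25 DAP, though under its 81.0 FPKM at 11 DAP. Histone copies are near-identical, and single values are uncertain.

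Of 52 DNA replication and cell cycle genes that passed the filter, 9 were lower (17.3%, beside 6.09% of all genes) and none higher. Under each scaling 5 of the 9 kept their call. The match to ORC6 (GRMZM5G825512), a subunit of the origin recognition complex, was at 10.9, 11.6 and 1.58 FPKM at 13, 15 and 20 DAP. The median of this list, -0.39, was only 0.12 below all genes, so the calls rest on a subset. Top1, a topoisomerase, was at 360, 283 and 270 FPKM and at 659 FPKM at 25 DAP. Of 13 genes from the DNA methylation list 2 were lower (15.4%, beside 6.09% of all genes). The list includes an off-topic match to caffeoyl coenzyme A O-methyltransferase 1 (GRMZM2G099363), which was not called. Of the lower genes, met2 (GRMZM2G025592), a chromomethylase 3 match, was at 3.39, 2.93 and 0.39 FPKM. Met1 (GRMZM2G334041), named after its values were seen, was at 3.03, 2.59 and 0.75 FPKM, a call lost under all 3 scalings. The match to the demethylase DML1 (GRMZM2G422464) was at 34.2, 26.5 and 29.0 FPKM. Of 6 Polycomb genes and 26 genes of small RNA pathways none was called in either direction.

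The genes with the highest differences had varied roles. A MADS-box gene matched to AGL16 (GRMZM2G344991) was at 0.13, 0.04 and 37.8 FPKM at 13, 15 and 20 DAP and at 22.0 FPKM at 25 DAP. Its log2 differences, 5.10 and 5.22, were the largest among the named genes, and it was at most 0.11 FPKM at the 4 stages from 7 to 11 DAP. A second MADS-box gene, m25 (GRMZM2G018589), matched to AGAMOUS, was at 3.44, 4.62 and 45.8 FPKM and at 78.3 FPKM at 25 DAP. Both belong to a family of transcription factors best known from flower development, and both were listed at 0 in the leaf. A match to EGY3 (GRMZM2G049349) was at 0.34, 0.28 and 19.5 FPKM, with log2 differences of 3.937 and 4.003, and at 87.7 FPKM in the leaf.

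Genes of the vacuole and of transport were among the calls in both directions. Of 21 listed transporter genes that passed the filter, 2 were higher and 2 lower (9.52% each). The shares of all genes were 2.31% and 6.09%, and the list's median log2 difference was -0.047. Its largest lower call, a match to the Golgi nucleotide sugar transporter GONST3 (GRMZM2G173067), was at 8.99, 8.73 and 2.98 FPKM at 13, 15 and 20 DAP. The tonoplast aquaporin gene tip3a (GRMZM2G305446) was at 13.7, 17.6 and 172 FPKM at 13, 15 and 20 DAP, with log2 differences of 3.55 and 3.22. An alpha-TIP match (GRMZM2G037327), also of the tonoplast, was at 386, 462 and 321 FPKM, so the more abundant of these aquaporins at 13 and 15 DAP had no call. A match to the amino acid transporter UMAMIT14 (GRMZM2G139834) was at 2.40, 5.89 and 45.4 FPKM and remained at 36.7 FPKM at 25 DAP.

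The transcript of Atg8e (GRMZM2G014975), a ubiquitin-like protein that coats autophagosomes, was at 10.9, 15.7 and 66.0 FPKM at 13, 15 and 20 DAP, and at 65.0 FPKM at 25 DAP. Its log2 differences were 2.49 and 2.01. It was the single call among 16 autophagy genes (6.25%, beside 2.31% of all genes called higher). Of the 16, 12 were above both earlier libraries, beside 23.2% of all genes. The median log2 difference of the list was 0.46, 0.72 above all genes, and it was positive under each scaling. Atg8b was at 23.3, 27.2 and 46.8 FPKM, called under each of the 3 scalings, and Atg8a at 20.1, 23.6 and 19.4 FPKM. A match to NBR1 (GRMZM2G092447), a receptor for autophagic cargo, lay just inside the limit at 17.5, 15.3 and 36.6 FPKM.

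Defence proteins of the kernel included some of the most abundant higher genes. Of 16 that passed the filter 6 were higher (37.5%) and 1 lower (6.25%), beside 2.31% and 6.09% of all genes. All 6 higher genes kept their call under the 3 scalings, but only 3 did with a pseudocount of 5. Only 2 of the 6 averaged 10 FPKM or more. The list also holds the transfer cell gene betl10, which was not called. Rip1 (GRMZM2G063536), a ribosome-inactivating protein of the endosperm, was at 622, 876 and 2601 FPKM at 13, 15 and 20 DAP. Its log2 differences were 2.06 and 1.57, and at 25 DAP it was at 111 FPKM. The class IV chitinase chiB (GRMZM2G005633), which cleaves fungal cell wall chitin, was at 74.0, 94.8 and 283 FPKM and at 5.74 FPKM at 25 DAP. Both thus had their highest endosperm value at 20 DAP. In the whole kernels at 3 DAP chiB was at 158 FPKM and rip1 at 2.10 FPKM. A chitinase A match (GRMZM2G162359) was instead higher again at 25 DAP, at 2.25, 3.04, 11.4 and 27.1 FPKM from 13 to 25 DAP. The cystatin cc10, an inhibitor of cysteine proteases, was lower at 137, 245 and 67.3 FPKM, a call lost under the 3 scalings.

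**Figure D5:**
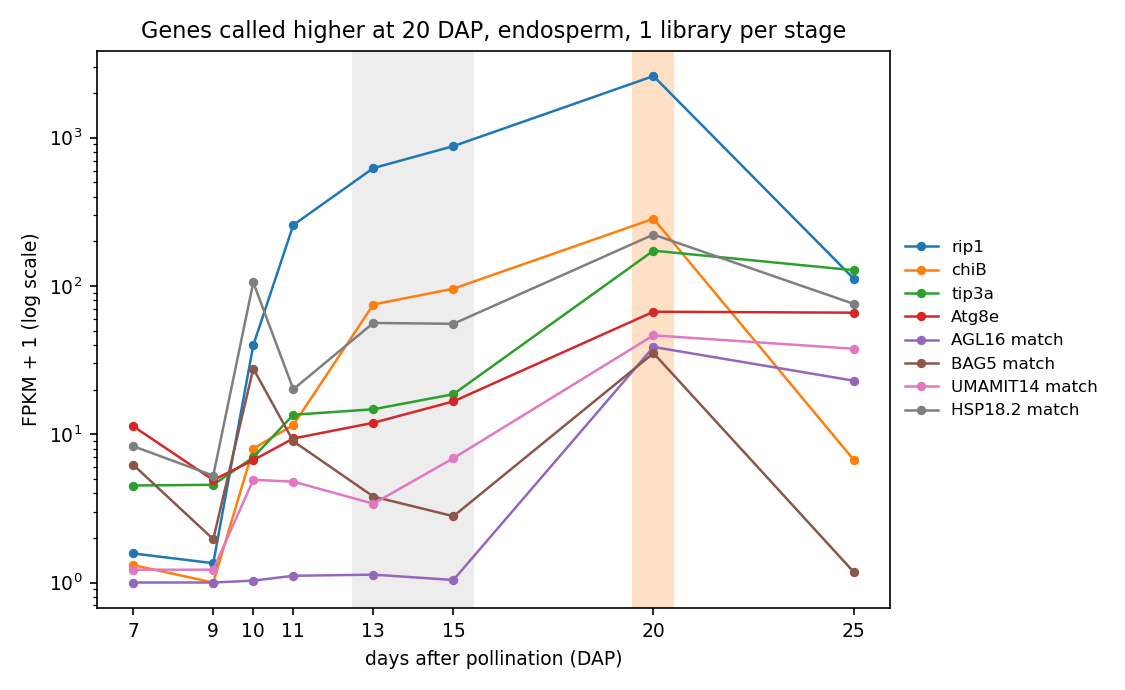
FPKM + 1 on a log scale (y axis) against age (x axis, DAP) for 8 genes called higher, over the 8 endosperm libraries, with 13 and 15 DAP shaded grey and 20 DAP orange. Rip1 peaks at 2601 FPKM at 20 DAP and is at 111 FPKM at 25 DAP, whereas Atg8e stays at 65.0 FPKM.

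Of 51 heat shock genes that passed the filter 4 were higher (7.84%) and 7 lower (13.7%), beside 2.31% and 6.09% of all genes. The balance turned under quantile, upper quartile and rescaled values, with 8, 6 and 8 higher and 5 lower in each. A match to HSP18.2 (GRMZM2G046382), a class I small heat shock protein, was at 55.3, 54.5 and 221 FPKM at 13, 15 and 20 DAP (log2 differences 1.98 and 2.0). A more abundant match to the same protein (AC208204.3_FG006) was at 318, 326 and 503 FPKM, without a call. The class II genes hsp18c and hsp18f were at 26.9, 80.2 and 3.53 FPKM and at 48.4, 120 and 8.23 FPKM. Both class II copies stood at 15 DAP above 13 DAP and lowest of the 3 at 20 DAP, though near-identical copies make each value uncertain. The 3 matches to the mitochondrial chaperonin HSP60 were also lower, and 2 matches to the repressor HSFB1 higher, named after their values were seen. A match to the co-chaperone BAG5 (GRMZM2G097135) was at 2.80, 1.80 and 34.2 FPKM and at 0.18 FPKM at 25 DAP. That gene and the HSP18.2 match also had raised values in the 10 DAP library, 26.7 and 105 FPKM, against 0.96 and 4.26 at 9 DAP. So did the class II genes that were lower at 20 DAP, with hsp18c at 93.0 FPKM and hsp18f at 202 FPKM at 10 DAP, against 0 and 3.28 at 9 DAP. Collection conditions other than midday dissection are not labelled, and their part in this result was not tested. Conditions of the harvest day cannot be told apart from age here.

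Of 22 sugar signalling genes that passed the filter 2 were higher and 2 lower (9.09% each, beside 2.31% and 6.09% of all genes), and neither lower call was kept under any of the 3 scalings. A hexokinase 1 match (GRMZM2G104081) was at 56.9, 47.8 and 142 FPKM at 13, 15 and 20 DAP, and TPS9 (GRMZM2G312521), matched to a trehalose phosphate synthase, at 6.12, 6.67 and 29.5 FPKM. A trehalose-6-phosphate phosphatase match (GRMZM2G178546), for the next step of that route, was lower at 9.76, 6.05 and 2.30 FPKM, a call lost under the 3 scalings. Of 35 NAC transcription factor genes 23 were above both earlier libraries, beside 23.2% of all genes, and 2 were higher (5.71%, beside 2.31%). Their median was 0.42, or 0.69 above all genes. With a pseudocount of 5, or among genes averaging 10 FPKM or more, no NAC gene was called. A match to ANAC041 (GRMZM2G054252) was at 2.26, 2.27 and 8.51 FPKM, while the abundant nac4 was at 524, 469 and 629 FPKM. Of 32 MYB genes 19 were above both, beside 23.2% of all genes. Of the 32, 2 were higher (6.25%) and 1 was lower (3.12%), beside 2.31% and 6.09% of all genes. The lower gene was MYBR64 (GRMZM5G835542), whose Arabidopsis match is isoprenoid F.

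Late seed genes were low in all 3 libraries. Rab17, a dehydrin of drying seeds, was at 0.03, 0.26 and 3.24 FPKM at 13, 15 and 20 DAP, and the embryo globulin gene glb1 (GRMZM2G067919) at 7.48, 13.2 and 22.7 FPKM without a call. Both are embryo markers as well. Ole1 made up 48.8 of the 67.1 FPKM of the embryo marker sum at 13 DAP, but 18.8 of the 55.2 FPKM at 20 DAP. There glb1 was the larger of these 2. Without ole1 the other 9 genes summed to 18.3, 22.6 and 36.4 FPKM, highest at 20 DAP. The part of embryo markers in this result was not tested. Of 8 transfer cell genes none was called: betl2 at 49.4, 15.2 and 12.6 FPKM and betl10 at 192, 82.7 and 49.7 FPKM were already well below their 13 DAP values at 15 DAP, whereas betl4 at 16.4, 12.8 and 25.0 FPKM and betl3 at 2.75, 2.65 and 4.02 FPKM were above both earlier libraries. Without the 15 DAP library 5 of the 8 were called lower.

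The genes nearest the limit show what separated a call from none. Just inside on the higher side were the NBR1 match and bZip37, whose nearer log2 differences were 1.022 and 1.025. Just outside were hag (GRMZM2G304548), at 3802, 3998 and 7972 FPKM with a nearer log2 difference of 0.995, and z1C1_7 with 0.989. On the lower side a formate dehydrogenase match (GRMZM2G049811) at 141, 158 and 69.9 FPKM was just inside with log2 differences of -1.003 and -1.165. The ec2e transcript (GRMZM2G100467) was just outside, at 147, 251 and 73.2 FPKM with log2 differences of -0.996 and -1.762.

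The 25 and 11 DAP libraries, which took no part in the calls, were compared for the same genes. Of the 325 higher genes, 178 (54.8%) were at least 2-fold higher at 25 than at 11 DAP and 20 were lower, whereas 1118 of all genes examined were higher (7.95%). Of the 856 lower genes, 690 (80.6%) were at least 2-fold lower at 25 than at 11 DAP and 11 were higher, whereas 4097 of all genes were lower (29.1%). The median 25 minus 11 DAP log2 difference was 1.26 for the higher genes, -2.0 for the lower genes and -0.44 for all genes. For zeins it was 3.87, and for glycolysis genes -1.57.

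Against the 25 DAP library itself the called genes were divided. The 20 DAP value was the highest of the 8 endosperm libraries for 221 of the 325 higher genes (68.0%, beside 8.85% of all genes examined), and the lowest for 399 of the 856 lower genes (46.6%, beside 3659 of all 14060). Since the call itself places 20 DAP beyond 13 and 15 DAP, these shares are partly set by the rule and are given as a description. Of the higher genes 141 were at least 2-fold lower at 25 than at 20 DAP, 14 were at least 2-fold higher and 170 lay within 2-fold, while of all 14060 genes 1381 were lower, 597 higher and 12082 within 2-fold. Of the lower genes 717 lay within 2-fold of their 20 DAP value at 25 DAP. Rip1, chiB and the BAG5 and asparaginase matches belong to the first of these sets, and gz50, fl2 and zpu1 do not.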

How the data were processed

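The authors deposited FPKM values with 2 decimals, 1 column per library. The authors' tools were cutadapt, edgeR and TopHat2, per the submitters' processing notes. Neither the versions and roles of these tools nor the genome build and annotation are given in the sources used here. Low values showed no steps of whole reads, so the depth is unknown and no interval for counting error can be stated, and a gene at 0 is only listed at 0. The summed FPKM was 295655, 300271 and 292559 at 13, 15 and 20 DAP, and 14058, 14106 and 13421 genes reached 1 FPKM.

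Differences were taken on log2(FPKM + 1) with Python 3.11.15, pandas 2.3.3 and numpy 2.4.6, and the script was tested on simulated data. With 1 library per stage there is no test. Maize names came from RefSeq synonyms (assembly Zm-B73-REFERENCE-NAM-5.0, names only; 18368 of 34145 identifiers matched) and "match" means the Arabidopsis name the authors gave (11464 identifiers have a description). A symbol can match more than 1 identifier, so an identifier is given where this occurs.

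The comparison, the 46 gene lists and the alternatives were chosen with earlier results of these data known. The matching of lists was made insensitive to case, and some off-topic matches were removed, after values were seen. Others remain in the lists, such as the caffeoyl coenzyme A O-methyltransferase match in the DNA methylation list. Genes were named by rule: the 14 largest nearer differences each way among called genes of at least 10 FPKM with a name, at most 2 of a family; the top 3 of each list by mean and its largest call each way; the 10 most abundant at 20 DAP; a fixed set of starch, zein and regulatory genes; and 2 genes just inside and outside the limit each way. Other genes are marked in the text. The alternatives were other pseudocounts, filters, scalings, fold limits and leaving out either earlier library. Promoter motifs were not run, as no promoter sequence was used here.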

Additional observations from a re-analysis of the deposited data

How the results depend on the processing

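The counts of 325 higher and 856 lower genes depended on the settings as follows. A pseudocount of 0.1 gave 480 and 1541 with a median change of -0.33, and a pseudocount of 5 gave 121 and 326 with -0.14. Without the filter the counts were 359 and 865 (median -0.021), and with a mean of at least 10 FPKM they were 100 and 494 (median -0.39). Quantile normalization gave 553 and 413 (median -0.04), upper quartile scaling 502 and 468 (median -0.07), and rescaling without the 100 most abundant genes 627 and 377 (median 0.013). Any size on the same side gave 3259 and 8693, and 4-fold gave 50 and 55. Asking also for a difference beyond the 13 to 15 DAP gap left 317 and 852. Leaving out 1 earlier library gave from 421 (without 13 DAP) to 545 (without 15 DAP) higher genes and from 1219 (without 15 DAP) to 1386 (without 13 DAP) lower genes, with a median of -0.27 to -0.26.

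No call of a named gene reversed under these alternatives. Of the 218 genes taken by the naming rule, 94 were called. Of these 94, 17, 11 and 13 lost their call under quantile, upper quartile and rescaled values, and 8, 7 and 11 other named genes gained one. With a pseudocount of 5, 31 calls were lost, and 31 were lost with a mean of at least 10 FPKM. At 4-fold 68 were lost. No paired analysis was possible because each stage has 1 library. The promoter motif description was not run. The unknown depth limits low genes most: 225 of the higher and 362 of the lower calls had a mean from 1 to 10 FPKM.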

Other observations

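Some genes without a maize name or Arabidopsis match, chosen after their values were seen, were low at 20 DAP but not at 25 DAP. GRMZM2G464272 was at 201 and 109 FPKM at 13 and 15 DAP, 3.54 at 20 DAP and 116 at 25 DAP, with log2 differences of -5.47 and -4.59 for 20 DAP against 13 and 15 DAP. Of the 856 lower genes, 55 were at least 2-fold higher at 25 than at 20 DAP.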
